A study of Schizosaccharomyces pombe with 7 samples.

Results

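The 5 genes ubi4, sod1, knh3, rps27 and psu1 were chosen by their Fft3-GFP signal: they are fission yeast genes on the chromosome arms with the highest ratio in Fft3-GFP chromatin immunoprecipitation, apart from the EF1-alpha genes and act1. They are 5 of 4786 coding genes with a value, 4353 of them on the arms. Fft3 belongs to the Snf2 family of ATP-driven chromatin remodellers, and the arrays measured dimethylated lysine 9 of histone H3 (H3K9me2), the mark of heterochromatin, or Fft3 tagged with GFP. H3K9me2 was measured in Schizosaccharomyces pombe cells labelled WT (3 arrays, series 1, 2 and 3), in fft3∆ cells, which lack Fft3 (2 arrays, series 2 and 3), and in UV21 (1 array, series 1), a strain whose nature the labels do not give. All of these cells grew exponentially in rich medium at 30 °C and were fixed with 3% paraformaldehyde. The Fft3-GFP array (1 array, WT background) came from cells that had been kept at 18 °C for 6 h before the same fixation, followed by 10 mM dimethyl adipimidate, a second crosslinker. No array of untagged cells precipitated with the GFP antibody was analysed here. Immunoprecipitated DNA was labelled with Cy5 and DNA of the whole-cell extract with Cy3 for a tiling array with a 60-nt probe every 300 bp. A level is the log2 ratio of Cy5 to Cy3 minus the median of the array, averaged over the kept probes of a gene. The series number is the replicate number, and nothing in the labels says that the arrays of a group came from separate cultures, so p-values measure the spread between arrays, which may be technical.

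Such remodellers move, evict or stabilise nucleosomes. In fission yeast, H3K9me2 is laid down by the methyltransferase Clr4 and covers the pericentromeres, the subtelomeres and the mating-type region, while most arm genes carry little of it. All 5 genes here are arm genes with housekeeping or surface roles. ubi4 encodes polyubiquitin, head-to-tail copies of the protein modifier ubiquitin. sod1 encodes the copper and zinc superoxide dismutase. rps27 encodes a protein of the small ribosomal subunit (eS27). psu1 encodes a protein annotated as a beta-glucosidase, of the cell wall. knh3 shares its name with knh2, whose product is annotated as a cell surface protein of the Kre9/Knh1 family.

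In array coordinates, whose genome build is not given in the sources used here, ubi4 (SPBC337.08c) was covered by probes from 1045200 to 1046460 on chromosome 2 and rps27 (SPBC1685.10) from 518400 to 518760 on the same chromosome. sod1 (SPAC821.10c) was covered from 1003800 to 1004160 and psu1 (SPAC1002.13c) from 1822200 to 1824060, both on chromosome 1, and knh3 (SPCC553.10) from 283200 to 284760 on chromosome 3. The gene models, taken from the assembly ASM294v3, have 1 exon in ubi4, sod1, knh3 and psu1 and 3 exons in rps27, and only rps27 lies on the forward strand. The genes lie between 284.0 kb (knh3) and 1823 kb (psu1) from the nearest end of the probes of their chromosome, and at least 554.4 kb (ubi4) from the pericentromere. Of 22 probes inside the 5 genes, 15 were kept: 5 of 5 in ubi4, 1 of 2 in sod1, 4 of 6 in knh3, 1 of 2 in rps27 and 4 of 7 in psu1. sod1 and rps27 therefore rest on 1 probe each, while every other gene was required to have at least 2.

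The sequence around the annotated gene start is shown for rps27 and psu1, which share the HomolD box described next, and for ubi4, which has a match of TATAAA close to its start. Each line runs 5′ to 3′ from 250 bases before the start to 50 bases from it, on the gene's own strand of ASM294v3 in the RefSeq annotation. Capitals mark matches, on either strand, of the TATA box TATAAA and of the HomolD box CAGTCACA, a core promoter element of fission yeast ribosomal protein genes.
rps27: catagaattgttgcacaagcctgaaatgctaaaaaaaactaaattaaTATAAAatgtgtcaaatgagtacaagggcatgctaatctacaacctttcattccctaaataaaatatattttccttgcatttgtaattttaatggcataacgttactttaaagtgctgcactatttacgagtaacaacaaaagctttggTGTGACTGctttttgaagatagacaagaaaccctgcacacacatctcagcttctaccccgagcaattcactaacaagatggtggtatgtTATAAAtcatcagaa
psu1: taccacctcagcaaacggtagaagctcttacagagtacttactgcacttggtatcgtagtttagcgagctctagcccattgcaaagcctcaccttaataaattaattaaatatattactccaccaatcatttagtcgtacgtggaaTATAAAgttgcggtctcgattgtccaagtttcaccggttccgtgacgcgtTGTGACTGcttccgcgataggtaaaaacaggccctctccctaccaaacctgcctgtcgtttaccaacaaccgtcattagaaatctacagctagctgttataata
ubi4: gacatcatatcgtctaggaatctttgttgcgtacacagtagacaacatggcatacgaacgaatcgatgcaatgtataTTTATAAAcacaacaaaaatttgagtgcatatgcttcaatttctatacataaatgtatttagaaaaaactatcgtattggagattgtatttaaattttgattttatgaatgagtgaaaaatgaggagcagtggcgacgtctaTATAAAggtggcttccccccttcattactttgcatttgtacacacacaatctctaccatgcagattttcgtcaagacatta
rps27 and psu1 both hold the HomolD box on the reverse strand, as TGTGACTG, with its first base 54 bases before the start. A HomolD match occurred in 2.68% of 5112 promoters of this length and in 64.1% of the 131 promoters of genes named rps or rpl. TATAAA occurred in the promoters of all 5 genes and in 48.1% of all promoters. In ubi4 it was found 3 times, with the match nearest to the start at 31 bases before it, and a match on each strand overlaps further upstream. The letters TGACGT, the core of the cyclic AMP response element, and GAANNTTC, part of a heat shock element, had no match in these 5 windows and matched 5.91% and 11.1% of all promoters.

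The arrays differed in quality before any gene was compared. WT series 3 had 12.3% of its probes marked non-uniform by the scanner software and 3.79% saturated, where no other array had more than 4.66% or any saturated probe, so the differences at sod1 and rps27 are also given without it. The 2 arrays of series 3 had been read with extraction protocol 1105 and the others with 1200. In the whole-cell extract of the fft3∆ arrays, the median of the 12 probes placed in fft3 was 0.304% and 0.383% of the array median, against 55.0% to 84.5% on the other 5 arrays, and 3 and 5 of those probes were still well above background. As the number of arrays limits the precision, an exact permutation test could not give a two-sided p below 0.2 for 3 arrays against 2, or below 0.5 for 3 against 1.

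Fft3-GFP levels, the values that chose the genes, are described without a test. The ratio was 1.29 at ubi4, 1.28 at sod1, 1.19 at rps27, 1.11 at knh3 and 1.10 at psu1, against a median of -0.0013 and an SD of 0.214 over all 4786 genes. A log2 ratio of 1 or more was reached by 10 genes, or 0.209% of those measured. With 1 array these levels have no replicate error. The only gauge at hand is the median SD of a gene over the WT H3K9me2 arrays, 0.134, and no neighbours in that order differ by more than it. Ranked above knh3 and psu1 were tef103 (1.12), 1 of the EF1-alpha genes, and act1 (1.11), which encodes actin. Just below psu1 came pmp3 (1.09), a plasma membrane proteolipid, followed by tef102 (1.06), knh2 (0.98), SPCC1235.01 (0.97) and the transcription factor gene sfp1 (0.97). The step from psu1 to pmp3 is far smaller than that gauge. With non-uniform features kept, so that sod1 and rps27 had 2 probes each, the levels were 1.29 (ubi4), 1.16 (sod1), 1.12 (knh3), 1.06 (rps27) and 1.02 (psu1).

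The Fft3-GFP signal was highest inside each of the 5 genes. In ubi4 all 5 probes read between 1.05 and 1.48, with the highest 322 bp after the gene start. The probe 278 bp before the start read 0.50, and the one at 1522 bp, just past the gene end, read 0.11. In knh3 the 6 probes read between 0.92 and 1.23, the probe 63 bp before the start 0.82, and the next one upstream -0.04. Past the end of knh3 the ratio fell in steps from 0.62 to 0.27 over the next 6 probes, along the convergent gene toa2, which encodes the small subunit of TFIIA and overlaps knh3. In psu1 the 7 probes read between 0.69 and 1.31, with 0.37 at 140 bp before the start, 0.66 at the nearest probe past the end and -0.07 at the next. The 3 longer genes thus had a plateau over the gene body, on chromatin sheared to 500 to 1000 bp. In each of the 5 genes, every probe inside the gene read higher than every probe outside it in the stretch reaching 2 kb to either side. The genes were chosen by the mean of their kept in-gene probes on this same array, so that choice favours this order. The same comparison was not made in genes chosen otherwise.

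**Figure D1:**
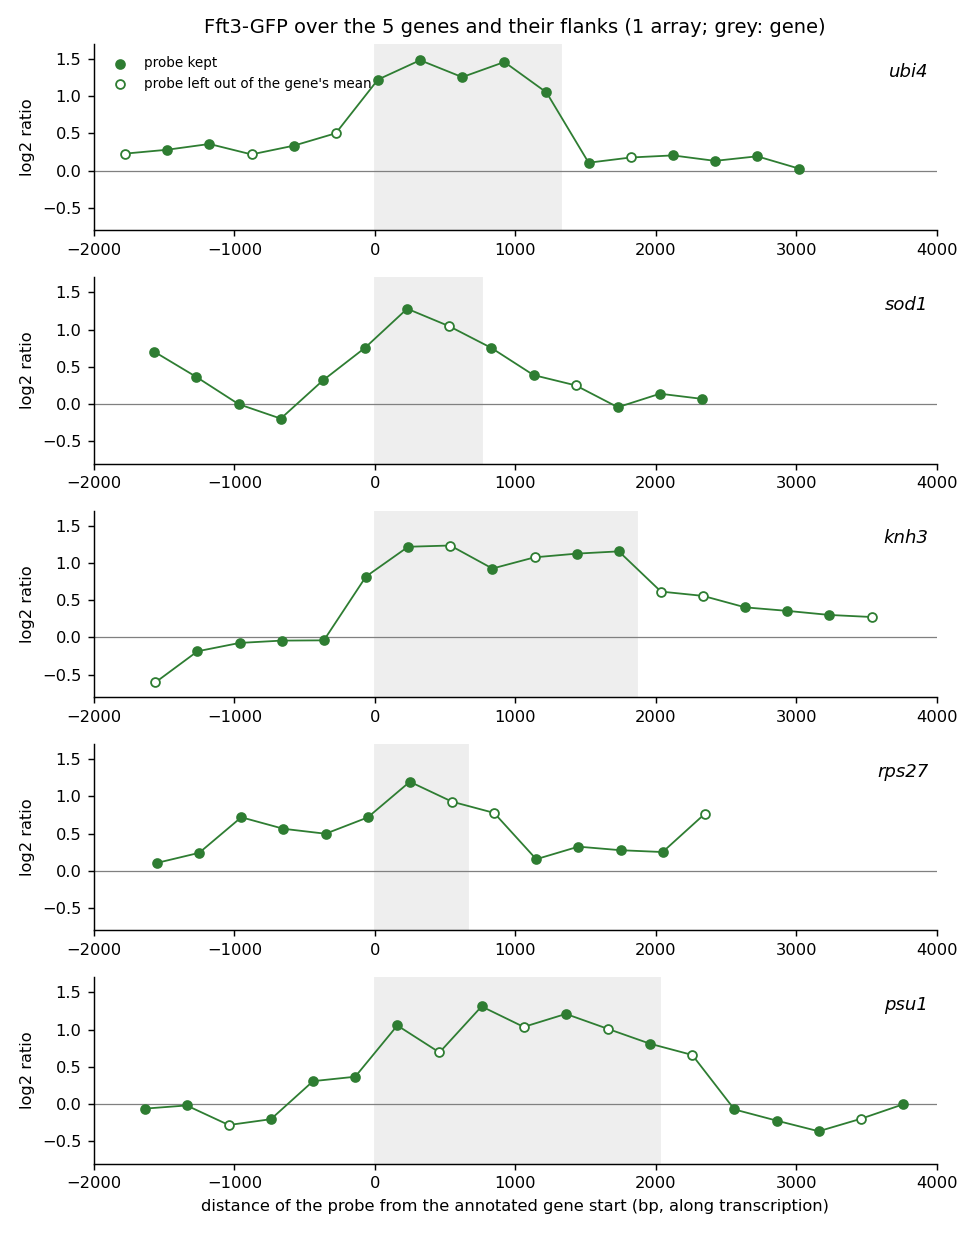
Fft3-GFP log2 ratio of each probe (1 array) against its distance from the annotated gene start in bp along transcription, with the gene shaded grey; open circles are probes left out of the gene's mean. The plateaus of ubi4 (1.05 to 1.48), knh3 (0.92 to 1.23) and psu1 (0.69 to 1.31) cover the gene bodies. sod1 and rps27 hold 2 probes each. Around their highest probe, the run of probes at 0.5 or more is 4 long and reaches past both gene ends.

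The shorter genes sod1 and rps27 hold 2 probes each, and their peaks reached past both gene ends. The run of probes at 0.5 or more around the highest was 4 probes long in each. In sod1 the probes 230 bp and 530 bp after the start read 1.28 and 1.04, and those just before and after the gene read 0.75 each. In rps27 the probes 249 bp and 549 bp after the start read 1.19 and 0.93, and the one at 849 bp, past the gene end, read 0.78. The flank of rps27 was not at zero: the 4 probes from 951 bp to 51 bp before its start read 0.72, 0.56, 0.50 and 0.72, a stretch that holds rps29, another gene of the small ribosomal subunit, which had no value of its own. Among coding neighbours within 2 kb, erg28 upstream of ubi4 read 0.49, toa2 0.38 and rlp1 (a RecA family ATPase, downstream of rps27) 0.25. The other neighbours ecm14 (0.16), eng1 (0.03), cti6 (0.12), med6 (0.08), itt1 (0.06) and ssd1 (-0.16) lay within 1 SD (0.214) of the median of all genes. Of these, ecm14 was above the upper quartile of all genes, 0.142. The annotation also places 3 (ubi4, sod1, psu1), 5 (rps27) and 6 (knh3) long non-coding RNAs in these stretches, and those overlapping ubi4, knh3 and rps27 cannot be told apart from them on these probes.

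Some probes of ubi4 may also read other loci. The gene matched 5 other coding genes of the assembly over at least 60 bp, with 85.1% identity over 228 bp to ubi5, 83.5% over 230 bp to ubi2, 82.6% over 253 bp to ubi1 and 82.3% over 231 bp to ubi3. sod1 and rps27 had no such match. knh3 matched 6 genes over short runs, the closest being knh4 at 78.2% over 78 bp, and psu1 matched psu2, also annotated as a beta-glucosidase, at 65.7% over 624 bp. The 3 probes inside ubi4 carry the array suffix m, whose meaning is not given in the sources used here, and read 1.46, 1.26 and 1.48 for Fft3-GFP. The 2 without it read 1.05 and 1.22, a mean of 1.14. The part of cross-hybridisation in these values was not tested.

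Fft3-GFP was nearly uncorrelated with the H3K9me2 level of the same genes. Across the 4353 arm genes, which share both arrays' probes, Pearson's r between Fft3-GFP and the WT H3K9me2 mean was 0.074 and Spearman's rho 0.072. The corresponding r was 0.384 with the GC content of the gene, 0.337 with Cy3 on the Fft3-GFP array and -0.053 with gene length. The 5 genes spread over these properties, with GC contents from 35.8% (rps27, above 33.6% of genes) to 42.7% (psu1, above 96.8%). Their Cy3 level on the Fft3-GFP array ran from -0.05 in psu1 and 0.05 in rps27 to 0.78 in ubi4, relative to the array median. In ubi4 Cy3 was high on every array, at 1.37 ± 0.21 (SD, n = 3) on the WT arrays. With the mean Cy3 of the WT arrays as denominator, the Fft3-GFP level was 1.42 at knh3, 1.03 at rps27, 0.97 at psu1, 0.93 at sod1 and 0.72 at ubi4, so the order changed, and 66 genes reached 1.

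H3K9me2 in WT split the set. The level of psu1 was -0.94, -0.86 and -0.50 in series 1, 2 and 3, a mean of -0.77 ± 0.24 (SD, n = 3). In rps27 it was -0.60, -0.98 and -0.73, a mean of -0.77 ± 0.19 (SD, n = 3). Only 0.146% and 0.105% of the 4786 genes had a lower WT mean than psu1 and rps27, and 0.209% had a lower one than tef103. The other 3 genes lay inside the bulk of all genes. ubi4 read -0.11, -0.09 and 0.27 (mean 0.03 ± 0.21, SD, n = 3), above 57.0% of genes. knh3 read 0.07, 0.14 and -0.23 (mean -0.01 ± 0.20, SD, n = 3), above 50.8% of genes. sod1 read -0.11, -0.11 and -0.29 (mean -0.17 ± 0.10, SD, n = 3), above 20.6% of genes. The lowest WT values of rps27 and psu1 came with a low Cy5 signal, -0.61 ± 0.65 and -0.75 ± 0.33 (SD, n = 3), and a Cy3 signal of 0.22 ± 0.82 and 0.08 ± 0.18 (SD, n = 3), all relative to the array median.

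**Figure D2:**
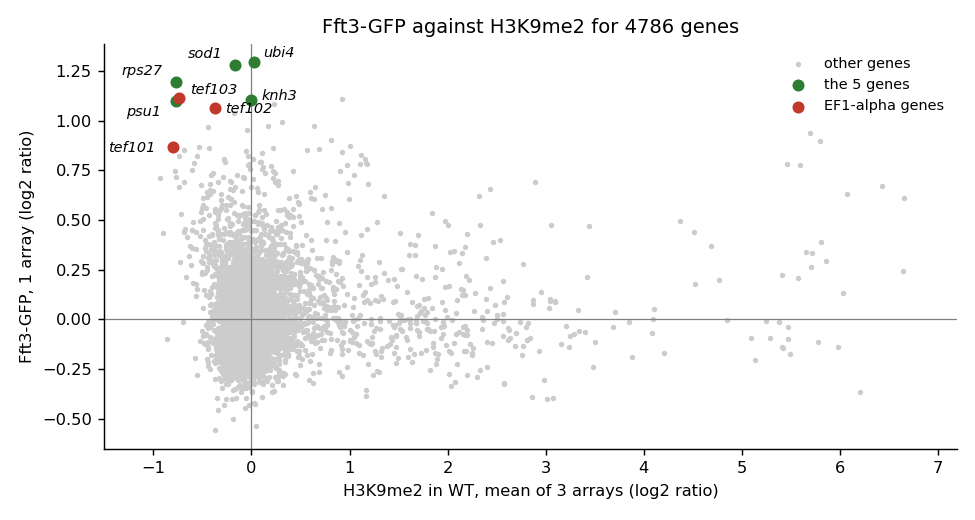
Fft3-GFP (1 array) against H3K9me2 in WT (mean of 3 arrays), both as log2 ratios, with 1 point per gene; green points are the 5 genes and red points the EF1-alpha genes. The 5 genes lie at the top of the vertical axis by choice, while rps27 and psu1 lie at the left edge (-0.77 each) and ubi4, knh3 and sod1 between -0.17 and 0.03.

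The fft3∆ arrays were set against the WT arrays to see how H3K9me2 at these genes differs without Fft3. The 5 genes did not move together: sod1 fell, rps27 rose, and ubi4, knh3 and psu1 did not pass the test (limma across all genes, Benjamini-Hochberg adjustment, threshold 0.05). Thus 1 of 5 was called lower and 1 of 5 higher, where 6.37% of all 4786 genes were called lower and 0.0836% higher. The shares are not like for like: sod1 and rps27 rest on 1 probe each, below the minimum of 2 set for other genes. ubi4, knh3 and psu1, which met that minimum, were not called. The count of higher genes is small and moves with the arrays used, so the direction of rps27 is given with each array left out. Over all genes the median difference was -0.11.

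rps27 rose in fft3∆. Its level was 0.17 in series 2 and 0.90 in series 3 of fft3∆, a mean of 0.54 ± 0.52 (SD, n = 2), and both values lie above every WT array. The difference of 1.31 (SE 0.25), a 2.47-fold higher ratio, had an adjusted p of 0.0281 by limma, and within series 2 and 3 it was 1.15 and 1.64. Whereas only 0.105% of genes had a lower mean in WT, 94.2% had a lower one in fft3∆. The other genes called higher were dus2 (0.83), a tRNA dihydrouridine synthase gene, fzr3 (0.67), a meiotic activator of the anaphase-promoting complex, and SPAC29A4.23 (1.09), and each lost its call without any one of the WT arrays (adjusted p 0.125 to 0.253). Without WT series 3 the difference at rps27 was 1.32 with an adjusted p of 0.121, and without WT series 1 and WT series 2 the adjusted p was 0.0705 and 0.101. Without fft3∆ series 2 or series 3, which leaves 1 fft3∆ array that is assumed to vary like the other groups, the difference was 1.67 and 0.94.

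The rise at rps27 continued past its kept probe. Both fft3∆ arrays lay above all WT arrays at 6 of the 14 probes of the stretch reaching 2 kb to either side, 5 of them consecutive from 351 bp before the start to 849 bp after it, with differences of 1.36, 1.33, 1.31, 1.16 and 0.64. In that run, those at 549 bp and 849 bp after the start were not among the kept probes. The promoter printed above lies in that run. At the next 3 probes downstream, over rlp1, the order was reversed, with differences of -1.23, -0.72 and -0.42. At the nearest of these WT series 3 read 2.37 where the other WT arrays read 0.03 and 0.35, and without it the 3 differences were -0.50, -0.60 and -0.35. Averaged over the whole stretch the difference was 0.19 (SE 0.19, adjusted p = 0.658 by limma). For comparison, both fft3∆ arrays lay above every WT array in 9.32% of all genes and below every WT array in 27.8%.

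sod1 fell in fft3∆. Its level was -0.99 and -1.36 in series 2 and 3 of fft3∆, a mean of -1.18 ± 0.26 (SD, n = 2), and both values lie below every WT array. That order was found in 27.8% of all genes, a share of genes and not of probes. The difference of -1.01 (SE 0.17), a 2.01-fold lower ratio, had an adjusted p of 0.0219 by limma, and within series 2 and 3 it was -0.88 and -1.08. Only 0.376% of genes had a lower mean in fft3∆. Its second probe, left out as non-uniform, showed -0.55, and with it the difference was -0.76 and the adjusted p 0.0613. Without WT series 3 the difference was -1.07 with an adjusted p of 0.0737, and without WT series 1 and WT series 2 the adjusted p was 0.0930 and 0.0990. The 4 probes farthest downstream, over eng1, a glucanase gene of the cell septum, were lower as well, by 0.78 to 0.93 on the log2 scale, whereas no probe upstream of sod1 had both fft3∆ arrays on one side of all WT arrays. The nearest of these 4, at 1430 bp after the start, was not among the kept probes. The stretch as a whole differed by -0.45 (SE 0.19, adjusted p = 0.256 by limma).

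**Figure D3:**
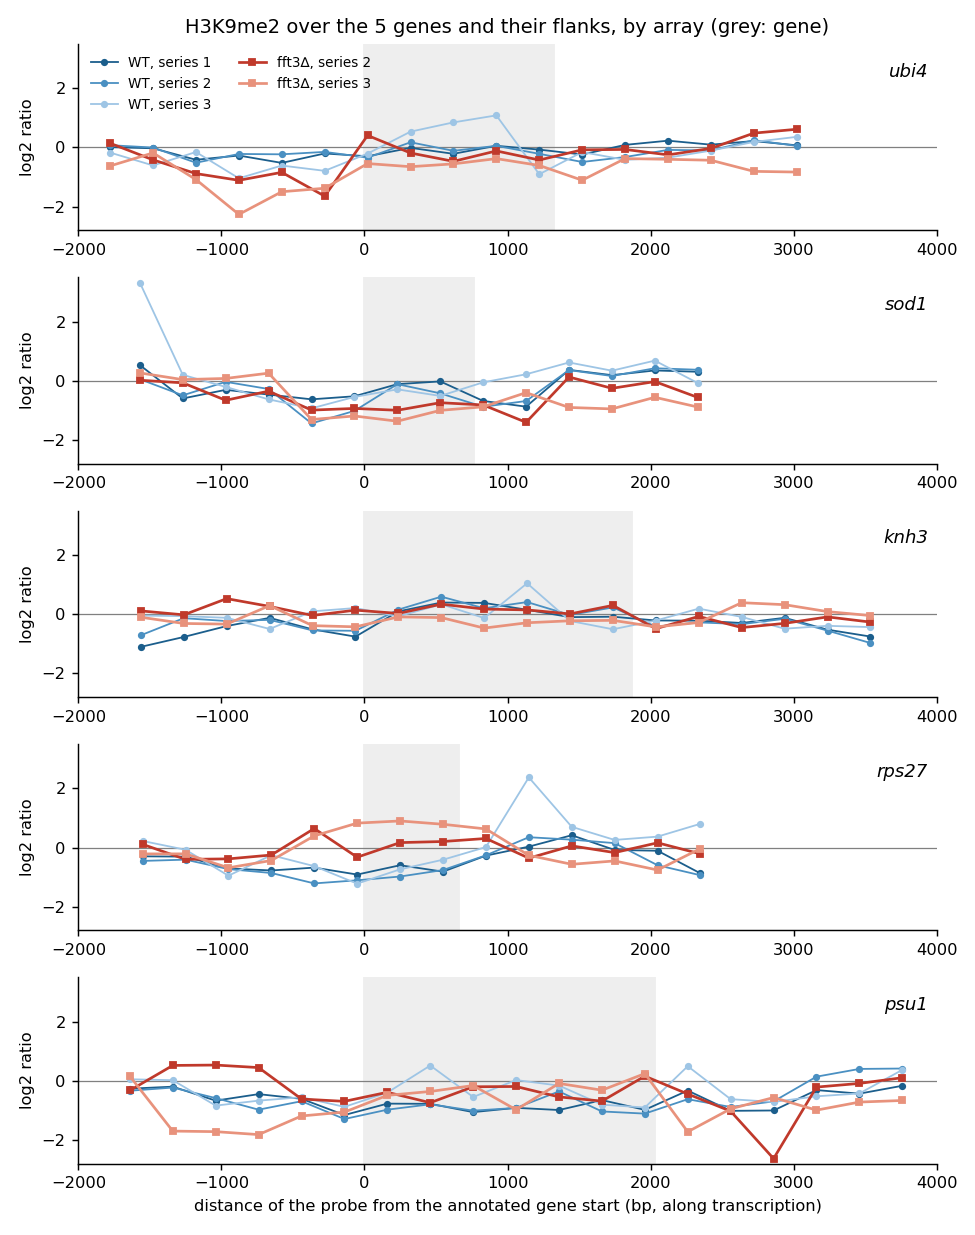
H3K9me2 log2 ratio of each probe on the 3 WT arrays (blue circles) and the 2 fft3∆ arrays (red squares) against distance from the annotated gene start in bp along transcription, with the gene shaded grey. Over rps27 both fft3∆ arrays lie above the WT arrays at 5 consecutive probes, and over sod1 both lie below them at its 2 probes. Probes left out of the gene's mean are drawn as well.

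psu1 was higher in both fft3∆ arrays, at -0.24 and -0.12, than in any WT array, but the difference of 0.59 (SE 0.18, 95% interval 0.15 to 1.02 before adjustment) had an adjusted p of 0.132. Inside the gene, 2 of 7 probes had both fft3∆ arrays above every WT array, by 1.20 near the gene end and by 0.69 in its middle. For comparison, 9.32% of all genes had both fft3∆ arrays above every WT array, a share of genes and not of probes. The stretch of psu1 differed by 0.01 (SE 0.17), and none of the 5 stretches passed the test. The stretch of ubi4 differed by -0.36 (adjusted p = 0.372 by limma), and by -0.63 without fft3∆ series 2 (adjusted p = 0.0370, with 1 fft3∆ array left) and -0.10 without fft3∆ series 3. knh3 read 0.13 and -0.25 in fft3∆, where the WT arrays ran from -0.23 to 0.14, so that the groups overlapped, with a difference of -0.05 (SE 0.19, 95% interval -0.51 to 0.41, adjusted p = 0.920 by limma).

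ubi4 read -0.16 and -0.55 in fft3∆, both below every WT array, with a difference of -0.38 (SE 0.20, 95% interval -0.85 to 0.09) and an adjusted p of 0.365 by limma. The value depends on its probes: at the 3 with the suffix m, WT series 3 read 1.09, 0.85 and 0.54, while the other WT arrays read between -0.21 and 0.18. At the 2 probes without the suffix the WT mean was -0.34 ± 0.19 (SD, n = 3) and the fft3∆ mean -0.29 ± 0.40 (SD, n = 2), a difference of 0.05. Upstream of ubi4, 4 of 6 probes, from 278 bp to 1178 bp before the start, were lower in both fft3∆ arrays than in every WT array. The kept ones, at 578 bp and 1178 bp, differed by -0.71 and -0.62. Those at 278 bp and 878 bp, with differences of -1.13 and -1.18, were not among the kept probes. For comparison, 27.8% of all genes had both fft3∆ arrays below every WT array, a share of genes and not of probes.

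**Figure D4:**
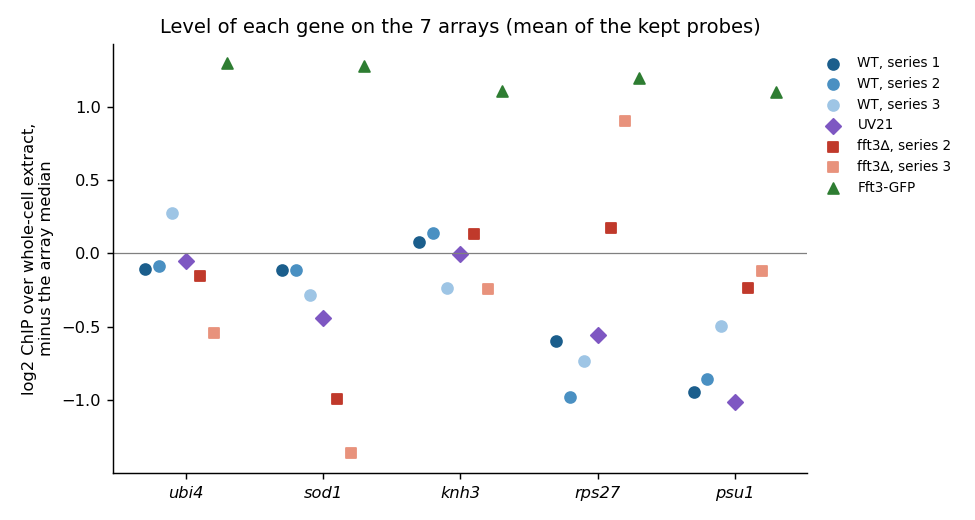
Level of each gene (log2 ratio minus the array median, mean of its kept probes) on the 7 arrays; circles are WT, the diamond UV21, squares fft3∆ and triangles Fft3-GFP. In rps27 and psu1 both squares lie above all circles, in sod1 and ubi4 both lie below, and in knh3 they overlap. Over all genes, both fft3∆ arrays lay above every WT array in 9.32% and below every WT array in 27.8%.

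The channels behind these ratios were compared separately. The Cy3 signal of whole-cell extract did not pass the test between fft3∆ and WT at any of the 5 genes, nor at any of 4786 genes (0.0% called, 103 at an unadjusted p under 0.05). At rps27 the Cy3 difference was 0.59 (SE 0.41) and the Cy5 difference 1.95 (SE 0.42, adjusted p = 0.0464 by limma). At sod1 the Cy3 difference was -0.41 (SE 0.29) and the Cy5 difference -1.36 (SE 0.32, adjusted p = 0.0627 by limma). The Cy3 differences moved with single WT arrays, to 0.12 at rps27 without WT series 1 and to -0.13 at sod1 without WT series 3. Within series 2 rps27 differed by -0.23 in Cy3 and by 0.99 in Cy5. The Cy3 level itself varied between the WT arrays with an SD of 0.82 at rps27 and 0.54 at sod1 (n = 3). At knh3 Cy3 and Cy5 differed by almost the same amount, 0.44 and 0.45.

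**Figure D5:**
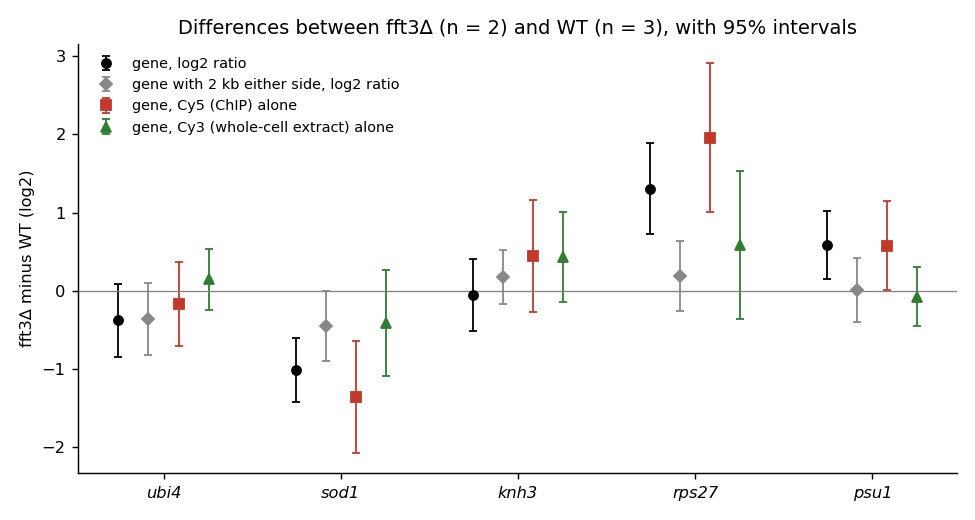
Difference between fft3∆ (n = 2) and WT (n = 3) on the log2 scale, with 95% intervals from limma before adjustment, for the gene's ratio, the ratio of the stretch with 2 kb either side, Cy5 alone and Cy3 alone. The ratios of sod1 (-1.01), rps27 (1.31) and psu1 (0.59) have intervals clear of 0, negative at sod1 and positive at rps27 and psu1. Their Cy5 intervals are clear of 0 as well. After adjustment psu1 passed the test on neither measure and sod1 not on Cy5. All 5 stretch intervals include 0.

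UV21 was compared with WT on 1 array, which limma assumes to vary like the other groups. No gene passed the test (0.0% of 4786 called, 189 at an unadjusted p under 0.05). The levels in UV21 were -0.06 at ubi4, -0.44 at sod1, 0.00 at knh3, -0.56 at rps27 and -1.01 at psu1. The differences from WT were -0.08, -0.27, 0.00, 0.21 and -0.25 in the same order, and the narrowest 95% interval, that of sod1, ran from -0.80 to 0.25. UV21 lay inside the range of the WT arrays at ubi4 and knh3, below it at sod1 and psu1, and above it at rps27. The share of all genes outside the WT range in UV21 was not counted. For 3 arrays against 1, the exact permutation test cannot give a two-sided p below 0.5, so these positions are descriptions only.

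Genes of the same families were described by lists chosen with earlier results of these data known, and their medians are descriptions. Of 5 ubiquitin genes listed, 4 had a value, with a median Fft3-GFP level of 0.63, or 0.56 without ubi4, which was chosen on this value, against -0.0013 for all genes. After ubi4 the highest were ubi5 (0.69), ubiquitin fused to a ribosomal protein, and ubi2 (0.56), and none of the 4 passed the fft3∆ test. Of 55 genes of the small ribosomal subunit, 35 had a value, with a median of 0.45 with or without rps27. rps27 stood above the next highest, rps1701 (0.69) and rps2402 (0.68), and the lowest read 0.13. As rps27 rests on 1 probe, below the minimum of 2 set for the other genes, neither its place nor its call in this list is like for like. In fft3∆, 2 of the 35 were lower, rps2601 (-0.69, adjusted p = 0.0453) and rps402 (-1.07, adjusted p = 0.0498), and only rps27 was higher by limma, beside the 6.37% of all genes called lower and the 0.0836% called higher. rps2601 and rps402 lost their calls without any one of the WT arrays.

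The 10 measured of 12 genes of superoxide and peroxide defence had a median Fft3-GFP level of 0.36, or 0.32 without sod1. After sod1 came ctt1, the catalase gene, at 0.55 and pmp20, a thioredoxin-related chaperone gene, at 0.54. sod2, the manganese superoxide dismutase gene, read 0.07 for Fft3-GFP and was the other gene of this list that passed the fft3∆ test, at -0.88 (adjusted p = 0.0364 by limma). Its H3K9me2 level was 0.64 ± 0.04 (SD, n = 3) in WT and -0.24 ± 0.31 (SD, n = 2) in fft3∆. These are 2 of 10 genes called lower, beside 6.37% of all genes, and both calls were lost without any one of the WT arrays (adjusted p for sod2 0.122 to 0.149). The shares are not like for like, as sod1 rests on 1 probe, below the minimum of 2 set for the other genes.

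Of 27 genes listed for cell wall synthesis and the cell surface, 25 had a value, with a median Fft3-GFP level of 0.32, or 0.27 without knh3 and psu1. knh3, psu1 and knh2 were its highest, and the lowest read -0.21. pwp1, which the annotation names a WD repeat protein, was the only one of them to pass the fft3∆ test, at -1.58 (adjusted p = 0.0266 by limma), and its adjusted p was 0.0649 to 0.125 with each WT array left out. That is 1 of 25, beside 6.37% of all genes called lower. The 11 genes of glycolysis and fermentation had a median of 0.56 and ran from 0.25 to 0.72 (tpi1, triosephosphate isomerase). fba1, fructose-bisphosphate aldolase, was the only one to pass the fft3∆ test, at -1.94 (adjusted p = 0.0403 by limma), a call lost without WT series 2 (0.105) or WT series 3 (0.136). Shares of 1 in 11 or 1 in 25 beside 6.37% are no result about a list. The 10 measured heat shock and chaperone genes of 13 listed had a median of 0.21, led by ssa2 (0.81), sks2 (0.67) and bip1 (0.65), and none passed the fft3∆ test. The 3 EF1-alpha genes, tef101, tef102 and tef103, read 0.87, 1.06 and 1.12 for Fft3-GFP. Their WT H3K9me2 means were -0.80, -0.38 and -0.73, and their fft3∆ differences of 0.09, -0.08 and 0.08 did not pass the test.

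The genes most like each member over all 7 arrays, by the Euclidean distance of their levels outside the member's own stretch, were themselves high in Fft3-GFP and were chosen by that measure. but2, a gene of the But2 family, was the nearest to both psu1 (distance 0.56) and rps27 (0.88), with an Fft3-GFP level of 0.85, a WT mean of -0.69 and an fft3∆ mean of 0.11. Next came cpc2, the gene of the ribosomal protein RACK1, for psu1 (0.69) and ubi5 for rps27 (1.09). rds1 was the nearest to knh3 (0.55) and to ubi4 (0.66), followed by htb1, a histone H2B gene, for knh3 (0.55) and gas2, a glucanosyltransferase gene, for ubi4 (0.67). For sod1 they were sno1 (0.85), with a WT mean of -0.10 and an fft3∆ mean of -1.23, and seb1 (1.005), a gene for poly(A) site selection. The median distance of all genes to a member lay between 1.37 (knh3) and 2.26 (rps27).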

How the data were processed

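H3K9me2 and Fft3-GFP were measured on 7 two-colour Agilent arrays, with no dye swap. The authors deposited the scanner files, which per the file headers hold each channel's processed intensity, background-subtracted and dye-scaled, and the software's log10 ratio of red over green, and a value table of the linear ratio of Cy5 to Cy3. Per the file headers, Feature Extraction 10.7.3.1 had been used for fft3∆ series 2 only, 11.5.1.1 for both arrays of series 3 and 12.0.3.1 for the others. Within series 2 the WT and fft3∆ arrays therefore differ in software version. The number of arrays limits precision.

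Log2 ratios of the processed signals were centred on each array's median, with no loess or quantile step. Probes were kept when uniform in both channels and, in Cy3, well above background on every one of the 6 H3K9me2 arrays (33704 of 41551). Genes needed 2 kept probes, and the 5 genes 1. The 6 arrays entered 1 limma 3.58.1 fit (lmFit, eBayes, group as the only term; R 4.3.3), with Benjamini-Hochberg adjustment over all genes and the 5 stretches and a threshold of 0.05. The fit was tested on simulated data. Gene names came from ASM294v3, each chromosome arm being placed by the shift with the best correlation of probe GC content and Cy3 (0.254 to 0.294, at most 0.056 elsewhere). Copies were sought with BLAST 2.17.0. Alternatives changed the background correction (normexp on median signals with an offset of 50, as the files have no mean signal), ratio column, filters, centring, summary over probes, arrays left out, blocks and flanks; Cy5 alone and ubi4 without its suffix m probes were chosen after seeing the data. Named genes were the 5 members, genes within 2 kb, the arm genes ranking above or next below them in Fft3-GFP (5 below), the 2 nearest by distance, the EF1-alpha genes, and in each list the 3 highest in Fft3-GFP and those passing the fft3∆ test. The members and lists were chosen with earlier results of these data known.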

Additional observations from a re-analysis of the deposited data

How the results depend on the processing

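The directions of sod1 (lower) and rps27 (higher) in fft3∆ held under all 16 alternatives run for each, while their calls did not. Some of the 16 could hardly differ from the main setting. With 1 probe per gene the median over probes is the same value, and the deposited value table holds the same ratios (-1.0097 and 1.305). The software's ratio column gave -1.0086 and 1.3038. At sod1 the difference ran from -1.36 to -0.38 and its adjusted p from 0.00809 to 0.261, and 7 alternatives lost the call, namely normexp (-0.63), the pericentromeric mean as centre (-0.38), non-uniform features kept (-0.76), Cy5 alone and each WT array left out. At rps27 it ran from 0.93 to 1.95 and the adjusted p from 3.41e-09 to 0.178, and 4 lost the call: normexp (0.93) and each WT array left out. At psu1 normexp (0.74, adjusted p = 0.0457) and the pericentromeric mean (1.22, adjusted p = 0.00121) made a call that the other 14 alternatives did not. Centring on the pericentromeres gave 150 genes lower and 1179 higher in fft3∆ and 4502 lower in UV21, and turned ubi4 (0.25) and knh3 (0.57) in fft3∆ and knh3 (-1.10) and rps27 (-0.89) in UV21. In the main setting 305 genes were lower and 4 higher. The higher count was 1 with the median over probes, 2 with the extraction protocol as a block and 2 with Cy5 alone, which gave 122 lower. Leaving out each array gave 73 to 677 lower and 0 to 102 higher, with the lowest count of lower genes without WT series 3 and both of the highest counts without fft3∆ series 2; with 1 fft3∆ array left, that array is assumed to vary like the other groups.

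Values near 0 changed sign. ubi4 in fft3∆ read 0.048 without its probes of suffix m. knh3 in fft3∆ read 0.0063 with the protocol as a block, 0.45 for Cy5 alone and -0.24 to 0.13 with each array left out, and its stretch read -0.053 with no flank. Stretches of sod1 and rps27 without flanks are the genes themselves. The stretch of psu1 ran from -0.14 to 0.16 with each array left out. knh3 in UV21 read -0.059 under normexp, -0.10 with non-uniform features kept, -0.0007 with arm centring, -0.052 with the median over probes, -0.12 with the protocol as a block and -0.11 to 0.076 with each array left out, and ubi4 in UV21 ran from -0.15 to 0.042. Genes lower in UV21 numbered 12 under normexp and 0 to 33 with each array left out. Cy3 differed at 1 gene with no filter on dim probes and at 0 to 3 genes with each array left out, and at psu1 it ran from -0.17 to 0.0096. A Fft3-GFP ratio of 1 or more was reached by 32 genes under normexp, 17 with the median over probes, 34 with the highest probe and 66 with the mean Cy3 of the WT arrays, against 10. The cause of these changes was not tested.

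With the series number as a replicate block, sod1 (-0.98) and rps27 (1.39) kept their calls, 41 genes were lower in UV21, Cy3 differed at 25 genes, and ubi4 (0.052) and knh3 (-0.078) in UV21 and the stretch of psu1 (-0.044) changed sign. The numbers are not said to mark a batch, and series 2 minus series 3 correlated at -0.044 between WT and fft3∆ over all genes. At least 99.6% of probes were well above background in either channel on every array.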
